A study of Mus musculus with 12 samples.

Results

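The receptor kinase genes Grk4, Grk5 and Grk6 and both beta-arrestin genes, Arrb1 and Arrb2, were followed across the cerebella of 12 mice. Their rows were taken by gene symbol from a table of raw counts, which held all 5 among its 18394 genes. All 5 passed the filter on low counts, as did 15467 genes in all. They were chosen by symbol because these proteins desensitise the receptor for corticotropin-releasing factor (CRF), at a time when the measured levels in both genotypes, among them a low Grk5 level in the knock-outs, were already known. The genotype values of the 5 genes are therefore given as a description with an interval and without a p-value.

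The libraries came from 6 wild-type (WT) mice and 6 mice labelled as deltaalpha6-Cre Crfr1 knock-outs (cKO), 1 cerebellum each. Crfr1 is the type 1 CRF receptor, listed under the symbol Crhr1, and the Cre driver carries the name of the GABA-A receptor subunit alpha 6, a subunit typical of cerebellar granule cells. The labels give no age, sex or litter, no control that carries Cre without the knock-out, and do not say which alleles the WT mice carried, so receptor loss, Cre and linked DNA cannot be told apart. RNA was taken from whole freshly dissected cerebellum, so that fewer cells of a type and less RNA per cell cannot be told apart either.

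When a G protein-coupled receptor is activated, a receptor kinase phosphorylates its inner face. An arrestin then binds the phosphorylated receptor, blocks further coupling to the G protein and links the receptor to clathrin and the adaptor AP2 for uptake from the membrane. The kinases encoded by Grk4, Grk5 and Grk6 form 1 subfamily that is held at the membrane, whereas those encoded by Adrbk1 and Adrbk2 (now named Grk2 and Grk3) are brought there by G protein beta-gamma subunits.

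The unit is CPM: each count was divided by its library total, corrected for composition by TMM, and multiplied by 1e6. In units of 1e6 counts (M), library totals ran from 23.8 to 62.1 M in WT and from 32.3 to 58.7 M in cKO. Granule, Purkinje and glial markers were present throughout: the summed level of 10 granule cell markers was 6411 to 6631 CPM in WT and 6087 to 6556 in cKO, and that of 8 Purkinje cell markers 7950 to 8252 and 7366 to 8409. Crhr1 itself measured 97.6 ± 4.31 CPM in WT and 98.8 ± 6.00 in cKO (n = 6 each, SD). Reads are summed over the whole gene and over all cells, so this level does not check the deletion.

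The stretches of 250 bases that end just before the annotated start of each kinase gene are shown because the 3 kinases belong to 1 subfamily but differed in how they compared between the genotypes. They are RefSeq sequences of build GRCm38.p6 (mm10), on the plus strand and written 5′ to 3′. The Grk5 stretch is chr19:60889499-60889748, that of Grk4 chr5:34660129-34660378 and that of Grk6 chr13:55444822-55445071. Capitals mark matches, on either strand, to 6 motifs: the cAMP response element TGACGTCA, its core TGACG, the E-box CACGTG, the CCAAT box CCAAT, the GC box GGGCGG and the TATA box TATAAA. The core lies within the full cAMP response element.
Grk5: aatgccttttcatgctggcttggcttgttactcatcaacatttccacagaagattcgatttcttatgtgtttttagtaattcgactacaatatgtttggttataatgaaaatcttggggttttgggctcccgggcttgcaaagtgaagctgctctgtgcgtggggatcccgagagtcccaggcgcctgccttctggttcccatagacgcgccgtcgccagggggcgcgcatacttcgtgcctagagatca
Grk4: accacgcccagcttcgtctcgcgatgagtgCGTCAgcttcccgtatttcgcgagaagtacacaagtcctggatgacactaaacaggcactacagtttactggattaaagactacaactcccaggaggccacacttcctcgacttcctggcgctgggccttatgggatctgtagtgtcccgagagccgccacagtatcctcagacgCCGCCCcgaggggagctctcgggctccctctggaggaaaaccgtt
Grk6: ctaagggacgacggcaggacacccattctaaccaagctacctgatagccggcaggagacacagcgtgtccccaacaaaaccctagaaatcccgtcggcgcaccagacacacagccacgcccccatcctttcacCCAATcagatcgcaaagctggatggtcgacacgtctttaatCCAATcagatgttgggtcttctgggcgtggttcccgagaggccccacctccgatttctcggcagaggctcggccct

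The Grk5 stretch held a match to 0 of the 6 motifs. Grk4 had 1 match to the cAMP response element core and 1 GC box, and Grk6 had 2 CCAAT boxes, counted from the start site at 117 and 76 bases before it. Among 32851 windows of the same length in the table, 1.55% held the full cAMP response element, 17.8% its core, 6.02% the E-box, 33.8% the CCAAT box, 32.7% the GC box and 12.4% the TATA box. GC made up 49.6% of the Grk5 stretch, 57.2% of Grk4 and 58% of Grk6, against a median of 52.4% over all windows. The share of windows with 0 of the 6 motifs was not counted, so nothing is read from the lack of matches in Grk5. A match is a run of letters and not a measured binding site.

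Grk5 was lower in the cKO cerebella, and the libraries of both genotypes overlapped for the other 4 members. Of the 5 genes, 1 passed an adjusted p of 0.05 in the fit across all genes (edgeR quasi-likelihood test, Benjamini-Hochberg), where 2.64% of all tested genes passed in either direction, 1.38% as lower and 1.27% as higher in cKO. In the same 1 gene the 6 values of one genotype lay wholly apart from the 6 of the other, as in 2.09% of all tested genes. Nothing is read from these counts, since the comparison was known when the genes were picked.

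Grk5, at chromosome 19, 60889749 to 61095968 (mm10, plus strand, ENSMUSG00000003228.9), encodes a kinase that acts on many hormone and transmitter receptors. In WT its level was 23.1 CPM at the lowest, 24.6 at the median and 29.0 at the highest. In cKO the lowest, median and highest values were 15.9, 17.2 and 18.1 CPM. The groups did not overlap, and the WT libraries were more spread out, with WT replicates 1 and 4 at 27.2 and 29.0 CPM. The means were 25.3 ± 2.40 and 17.2 ± 0.84 CPM (n = 6 each, SD), which amounts to 31.7% less in cKO with a 95% interval from 26.1% to 36.9% less (log2 fold change −0.55, SE 0.05). Of the 15467 tested genes, 58 had a lower log2 fold change, or 0.375%. Each library held 548 to 1583 Grk5 counts. In the authors' deposited table the log2 fold change of Grk5 was −0.41, a value that appears to be shrunken towards 0.

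Grk6, at chromosome 13, 55445072 to 55460927 (plus strand, ENSMUSG00000074886.11), encodes a kinase known for regulating dopamine and chemokine receptors. Its lowest, median and highest levels were 54.5, 59.3 and 60.6 CPM in WT and 55.0, 57.6 and 62.6 CPM in cKO. The groups overlapped over nearly their whole range. The log2 scale gave a difference of −0.01 ± 0.03 (SE, 95% interval −0.08 to 0.06), so that a difference of over 5.53% in the downward or 3.95% in the upward direction lies outside the interval.

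Grk4, at chromosome 5, 34660379 to 34755305 (plus strand, ENSMUSG00000052783.16), is best known from testis and kidney. It was the rarest member, with 161 to 440 counts per library. Its lowest, median and highest levels were 6.70, 7.59 and 8.44 CPM in WT and 6.35, 7.00 and 7.50 CPM in cKO. The groups overlapped, with WT replicates 1, 3 and 6 inside the range of the cKO libraries. The log2 fold change was −0.10 (SE 0.07, 95% interval −0.24 to 0.04), an interval that reaches 15.5% below WT. It was −0.07 without WT replicate 5 and −0.20 with a score of forebrain and midbrain markers as a covariate, and it did not pass the adjusted threshold in any of 22 alternative fits.

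**Figure D1:**
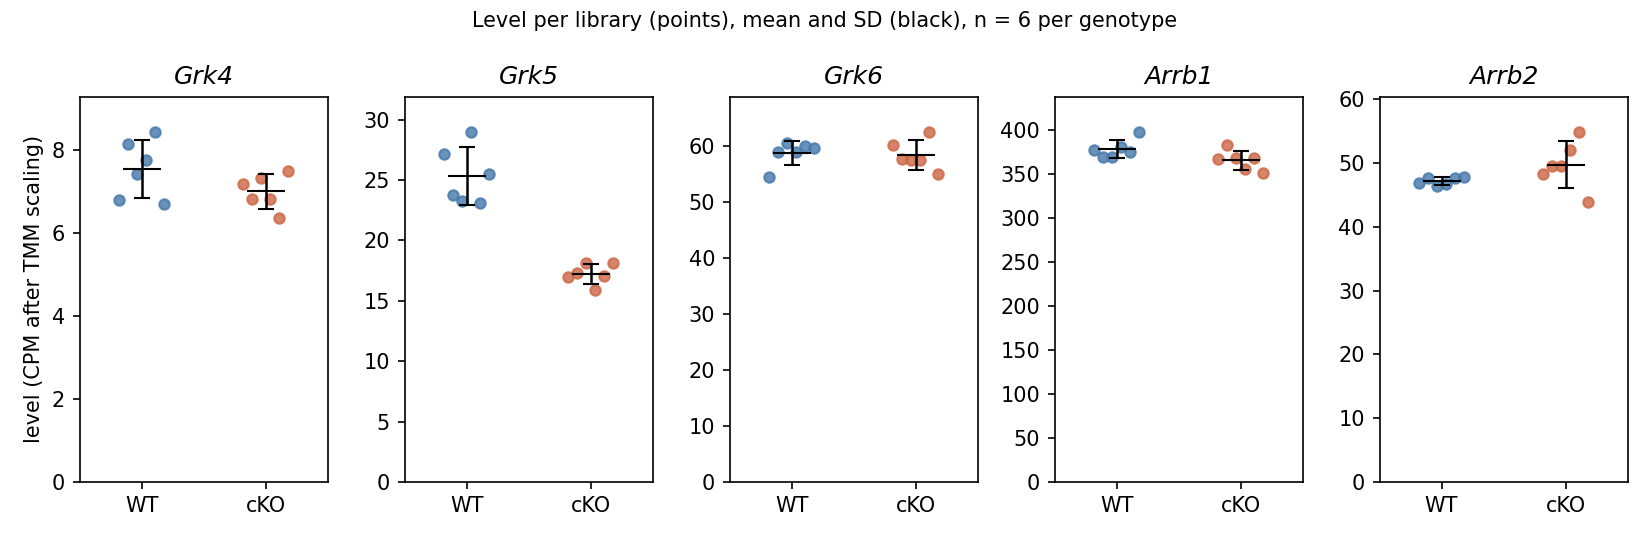
Level of each member in CPM after TMM scaling (vertical axes, from 0) in 6 WT and 6 cKO libraries (points), with the mean and SD in black. The cKO points of Grk5 lie between 15.9 and 18.1 CPM, below all WT points, which begin at 23.1, and the groups overlap in the other panels.

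Arrb1, at chromosome 7, 99535466 to 99606771 (plus strand, ENSMUSG00000018909.15), encodes beta-arrestin 1, which shuttles to the nucleus as well as acting at receptors. It was the most abundant of the 5 and ranked 380 among all tested genes by mean CPM. The lowest, median and highest levels were 369, 376 and 398 CPM in WT and 352, 367 and 383 CPM in cKO. The cKO libraries tended to lie lower but the groups overlapped, and WT replicate 6 alone lay above all cKO libraries. The log2 fold change was −0.05 (SE 0.03, 95% interval −0.10 to 0.00), which in percent runs from 6.88% below to 0.208% above WT. With 2 surrogate variables as covariates it was −0.09, and it was not called in any of the 22 alternative fits.

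Arrb2, at chromosome 11, 70432635 to 70440828 (plus strand, ENSMUSG00000060216.15), encodes beta-arrestin 2, known for its part in opioid and dopamine receptor signalling. The lowest, median and highest levels were 46.5, 47.2 and 47.8 CPM in WT and 44.0, 49.5 and 54.9 CPM in cKO. The WT values lay within the range of the cKO values, and cKO replicates 6 and 5 marked its lower and upper end. The SD was 0.592 CPM in WT and 3.69 CPM in cKO (n = 6 each). With 1112 to 2969 Arrb2 counts per library, the WT SD is smaller than counting noise alone would give. Nothing is therefore read from the gap between these SDs. The log2 fold change was 0.07 (SE 0.04, 95% interval −0.01 to 0.16). It was 0.11 without cKO replicate 6 and 0.04 without cKO replicate 5, and it did not pass the adjusted threshold in either fit. The summed choroid plexus markers, which ranged from 26.9 to 62.4 CPM in WT and from 22.5 to 91.6 CPM in cKO, also varied among the cKO libraries. Their part in the spread of Arrb2 was not tested.

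**Figure D2:**
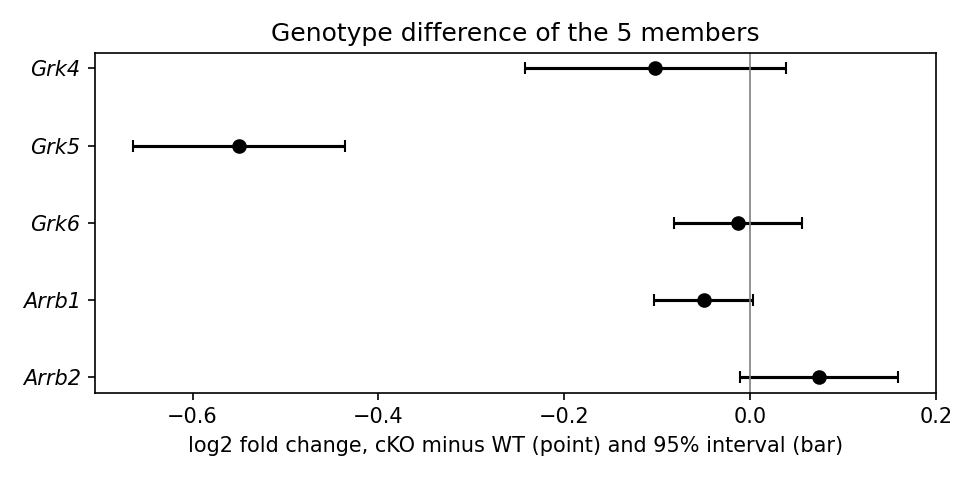
Log2 fold change of each member, cKO minus WT, with its 95% interval from the fit across all genes (horizontal axis). The interval of Grk5 runs from −0.66 to −0.44, and those of the other 4 members include 0.

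Compared per length of exon, the order of the 5 transcripts was the same in both genotypes: Arrb1, Arrb2, Grk6, Grk5 and Grk4, from highest to lowest. In WT, Arrb1 stood at 33.9 ± 0.96 CPM per kb, Arrb2 at 16.6 ± 0.21 and Grk6 at 14.0 ± 0.52 (n = 6 each, SD). Grk5 stood at 3.59 ± 0.34 and Grk4 at 1.56 ± 0.15 CPM per kb (n = 6 each, SD). In cKO the levels per kb were 32.7 ± 0.98 for Arrb1, 17.5 ± 1.30 for Arrb2, 13.9 ± 0.63 for Grk6, 2.44 ± 0.12 for Grk5 and 1.45 ± 0.09 for Grk4 (n = 6 each, SD). No 2 neighbours in this order overlapped within a genotype: the nearest pair, Arrb2 and Grk6, reached down to 15.5 and up to 14.9 CPM per kb in cKO. Exon length was summed over all annotated isoforms, which lowers the value of genes with many of them.

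The kinases outside the subfamily were the more abundant ones. Adrbk1, which encodes GRK2, stood at 66.2 ± 0.69 CPM per kb in WT and 67.0 ± 2.27 in cKO, and Adrbk2, which encodes GRK3, at 26.1 ± 0.44 and 24.6 ± 0.89 (n = 6 each, SD). Together these made up 82.3% to 83.4% of the 5 kinases' summed level per kb in the WT libraries and 83.3% to 84.2% in the cKO libraries.

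**Figure D3:**
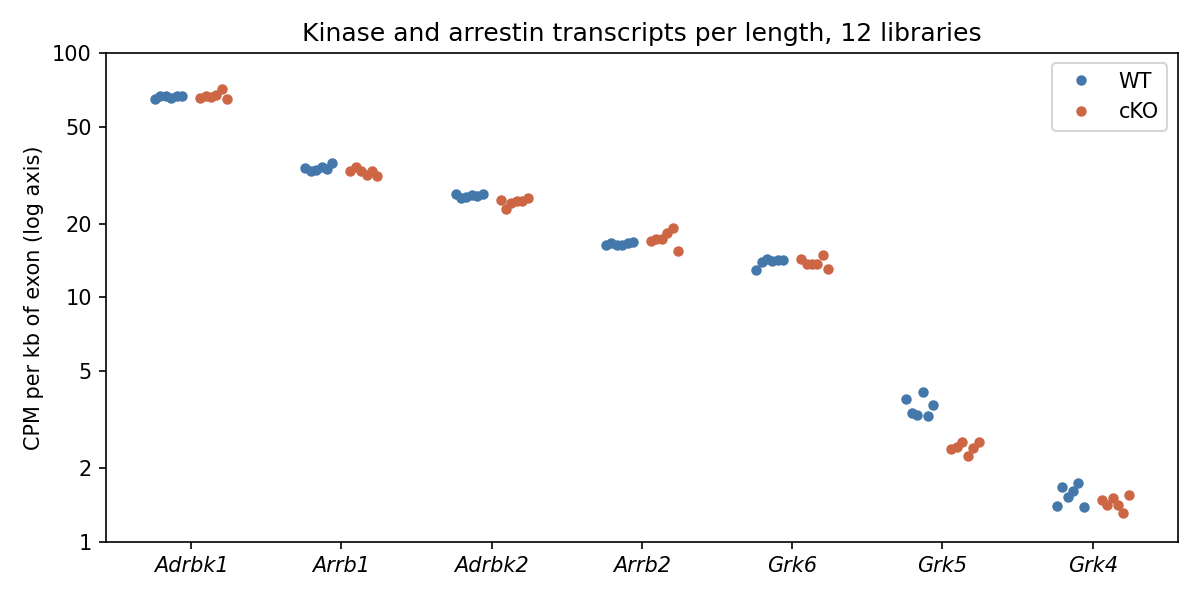
CPM per kb of exon (log axis) of the 5 members, with Adrbk1 and Adrbk2 for scale, in 6 WT and 6 cKO libraries (points). In WT, Adrbk1 stands highest at a mean of 66.2 and Grk4 lowest at 1.56, and the members keep their order in both genotypes.

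Within its subfamily Grk5 took up a smaller share in cKO, which restates its lower level and is no separate result. Per kb, it made up 17.0% to 21.2% of the sum of Grk4, Grk5 and Grk6 in the WT libraries and 13.0% to 14.9% in the cKO libraries. The share of Grk6 was 71.0% to 74.9% in WT and 76.0% to 79.9% in cKO, and that of Grk4 was 8.15 ± 0.68% and 8.16 ± 0.65% (n = 6 each, SD). The higher Grk6 share mirrors the lower Grk5 level, since Grk6 itself had a log2 fold change of −0.01. The summed level of the 3 kinases was 18.2 to 19.8 CPM per kb in WT and 17.2 to 18.6 in cKO, groups that overlapped. Among all 5 kinases Grk5 was a small part, at 3.22 ± 0.31% in WT and 2.24 ± 0.13% in cKO (n = 6 each, SD). The ratio of Arrb1 to Arrb2 per kb ran from 1.97 to 2.12 in WT and from 1.70 to 2.04 in cKO, with cKO replicates 4 and 5 lowest.

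**Figure D4:**
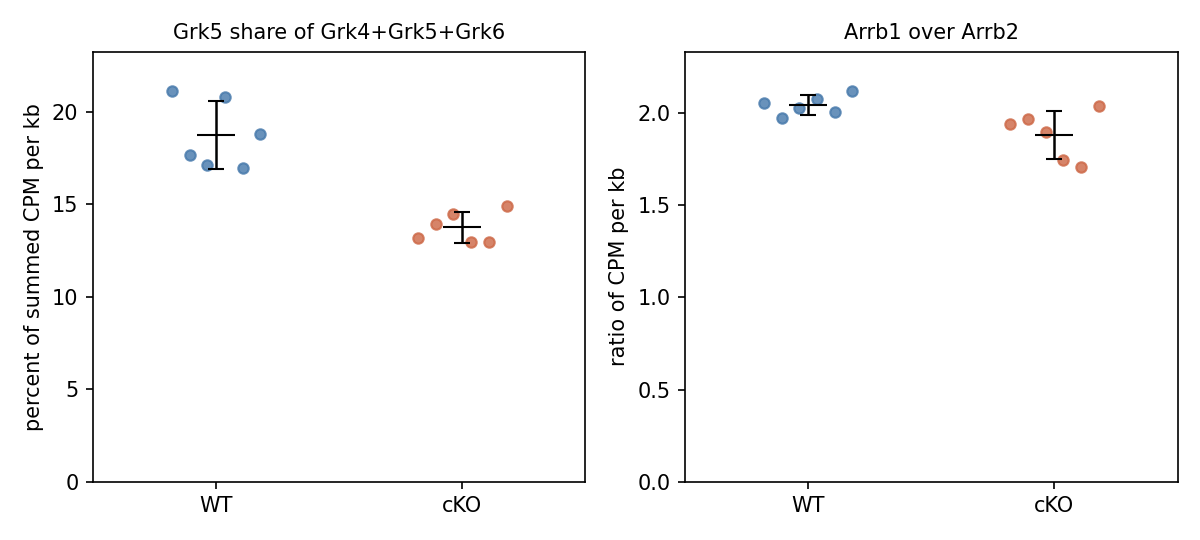
Left, Grk5 as a percentage of the summed CPM per kb of Grk4, Grk5 and Grk6, and right, the ratio of Arrb1 to Arrb2 per kb, in each library (points) with mean and SD in black. The Grk5 share is at most 14.9% in cKO and at least 17.0% in WT, and the arrestin ratios overlap.

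Grk5 was lower alongside some markers of neurons. In the whole list of 6 unipolar brush cell markers, 1 was lower and 0 higher, namely Eomes, a transcription factor of these cells, which fell from 21.8 ± 2.06 to 11.8 ± 1.17 CPM (n = 6 each, SD, edgeR adjusted p = 3.06e-07). The list summed to 462 to 488 CPM in WT and 446 to 470 in cKO. Among 10 granule cell markers 4 were lower (Gabra6, Zic1, Pax6 and Reln) and 1 higher (Etv1). The other 5 were not called, and over the 10 the log2 fold change was negative in 6 and positive in 4. Gabra6, which encodes the subunit that the Cre driver is named after, fell by 23.3%. The part of the driver in this fall was not tested. Among 8 markers of inhibitory interneurons and Golgi cells 1 was lower, Lgi2, and the log2 fold change was negative in all 8 (median −0.06). Among 8 of microglia 2 were higher, Cx3cr1 and Csf1r, and the log2 fold change was positive in all 8 (median 0.10). In each of these lists 4 genes had an unadjusted edgeR p under 0.05, against 14.2% of all tested genes. Of these markers Eomes, Gabra6 and Reln kept their calls in all 22 alternative fits, and Etv1 in 21, losing it with the forebrain and midbrain score (edgeR adjusted p = 0.0618). Lgi2 kept its call in 19, Zic1 in 17, Pax6 in 15, Cx3cr1 in 13 and Csf1r in 10, and none of these 5 was called with that score, with surrogate variables or without cKO replicates 1 and 3. Leaving out WT replicate 3 alone ended the calls of Zic1, Pax6, Cx3cr1 and Csf1r (edgeR adjusted p = 0.0650, 0.0669, 0.0929 and 0.108), as did leaving out WT replicate 1 (0.0573, 0.0552, 0.0627 and 0.0668). Single removals of WT replicates 2, 5 and 6 and cKO replicate 3 also ended the call of Cx3cr1, those of WT replicates 4 and 5 and cKO replicates 1, 2 and 3 that of Csf1r, and those of cKO replicates 1 and 3 that of Pax6. With the genotype means taken out, Grk5 correlated over the 12 libraries at r = 0.21 with Eomes and r = 0.37 with Gabra6. The part of these cell types in the Grk5 values was not tested.

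Markers of forebrain and midbrain summed slightly higher in the cKO libraries. The 10 markers added up to 24.9 to 29.0 CPM in WT and 27.9 to 34.3 CPM in cKO, and 1 of the 7 tested was higher. With a score of these markers as a covariate the log2 fold change of Grk5 was −0.48 (SE 0.07), and it was −0.56 (SE 0.06) without cKO replicates 1 and 3, the 2 libraries with the highest score.

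The Grk5 locus is overlapped on the opposite strand by Zfp950, a zinc finger gene, over 42129 bases but 0 bases of exon. Zfp950 measured 64.1 ± 2.45 CPM in WT and 63.4 ± 3.97 in cKO (n = 6 each, SD, log2 fold change −0.01, SE 0.04, edgeR adjusted p = 0.918). The library kit marks strand, but whether the counting used it is not given in the sources used here.

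The members did not vary as a block. Taking out each genotype's mean, the 10 pairs had Pearson r from −0.50 (Grk4 and Arrb1) to 0.60 (Grk6 and Arrb2) over the 12 libraries, the latter with a Spearman rho of 0.16. Grk5 had r of −0.17 with Grk4, −0.42 with Grk6, 0.29 with Arrb1 and −0.31 with Arrb2. These are descriptions of libraries that share a scaling. The variation between libraries of 1 genotype in the fit, as a biological coefficient of variation, was 5.95% for Grk5, 6.63% for Grk4, 3.72% for Grk6, 3.39% for Arrb1 and 4.69% for Arrb2. That of Grk5 and of Arrb2 exceeded that of 87.4% of the 500 genes nearest in level, and that of Grk4, Grk6 and Arrb1 exceeded 51.4%, 55.4% and 44.6%.

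Among 13820 other genes with a mean of at least 1 CPM, those whose levels tracked Grk5 most closely within genotypes were 1700047M11Rik (r = 0.89), Pfkfb3, which encodes a regulator of glycolysis (r = 0.88), and Atp10d, a lipid flippase gene (r = 0.88). None of these 3 passed as different between the genotypes (edgeR adjusted p = 0.368, 0.734 and 0.836). Rnf217, Akirin2 and Ppp1r32 were closest to Grk4 (r = 0.92, 0.90 and 0.86), and Cuta, Adgrg1 and Pde2a to Grk6 (r = 0.91, 0.91 and 0.90). Lrg1, Vwf and Rnf167 were closest to Arrb1 (r = 0.88, 0.87 and 0.86), and Gon4l, Mt3 and Lztr1 to Arrb2 (r = 0.92, 0.91 and 0.91). The highest of so many values over 12 libraries is large by selection, and 1% of all genes exceeded r = 0.69 with Grk5.

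Around the members, 9 lists held 156 genes that act before, beside or after them, 148 of them tested. Of these 1 was higher and 4 were lower in cKO, or 3.38% against 2.64% of all tested genes, with a median log2 fold change of 0.00. All 5 calls fell in 2 lists.

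Receptors held 4 of these calls. Of 32 tested G protein-coupled receptors, 4 were lower, among them Cnr1, Grm4 and Adra2c, and 0 higher (median log2 fold change −0.02). DESeq2 called 5 lower, these 4 and Gabbr2 (edgeR adjusted p = 0.0638), and 0 higher. Adra2c, an adrenergic receptor that inhibits transmitter release, went from 9.19 ± 0.76 to 6.58 ± 1.03 CPM (n = 6 each, SD, log2 fold change −0.47, SE 0.09, edgeR adjusted p = 0.00487). Cnr1, the cannabinoid receptor of axon terminals, and Grm4, a glutamate receptor of parallel fibre terminals, had log2 fold changes of −0.18 and −0.19. With the forebrain and midbrain score as covariate these 3 lost their calls (edgeR adjusted p = 0.0736 for Cnr1, 0.295 for Adra2c and 0.391 for Grm4), at log2 fold changes of −0.16, −0.34 and −0.15. With surrogate variables Cnr1 alone of the 3 kept its call, and Grm4 lost it without WT replicate 3 (edgeR adjusted p = 0.0518) and without cKO replicates 1 and 3 (edgeR adjusted p = 0.109).

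Of 14 tested regulators of receptor kinases, 1 was higher and 0 were lower (median log2 fold change 0.01). Prkcb, a protein kinase C gene, was at 768 ± 19.8 and 816 ± 21.1 CPM (n = 6 each, SD, edgeR adjusted p = 0.0515). Every cKO value of Prkcb lay above every WT value, and DESeq2 called it higher. Prkcd had a log2 fold change of −0.13 (edgeR adjusted p = 0.150) and was not called by DESeq2.

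The other 7 lists, with 102 tested genes, held 0 calls by edgeR, while 21 of the 102 (20.6%, against 14.2% of all tested genes) had an unadjusted p under 0.05 and DESeq2 called 4, Adrbk2, Gnal, Rgs11 and Dgkz. Of the kinases and arrestins outside the 5, 3 of 5 were tested. Adrbk2 had a log2 fold change of −0.08 (SE 0.03, edgeR adjusted p = 0.0937) and Adrbk1 of 0.02 (SE 0.02, adjusted p = 0.788). The visual arrestin Sag had 6 to 21 counts per library and a log2 fold change of 0.09 (SE 0.28, edgeR adjusted p = 0.931), and the retinal genes Grk1 and Arr3, at 0 to 8 and 0 to 5 counts, were not tested.

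Of 4 tested genes for CRF ligands, receptors and binding protein the smallest adjusted p was that of Ucn2, a urocortin (edgeR adjusted p = 0.707), followed by Crhbp and Crhr2 (0.797 and 0.811), all at a mean under 1 CPM. Crh, the ligand gene itself, had 1 to 10 counts per library and was not tested. Of 5 alpha-arrestins, relatives of the arrestins that act in protein trafficking, the smallest adjusted p were those of Arrdc4, Arrdc2 and Arrdc3 (log2 fold changes 0.19, −0.11 and −0.07, edgeR adjusted p = 0.115, 0.422 and 0.423).

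Of 26 G protein subunits, Gnal, an alpha subunit that stimulates adenylyl cyclase, was nearest to the threshold (log2 fold change −0.09, SE 0.03, edgeR adjusted p = 0.0593), then Gng4 and Gng10 (0.27 and −0.12, adjusted p = 0.195 and 0.221). Of 17 RGS genes, whose proteins shorten G protein signals, Rgs11 measured 5.19 ± 0.76 and 6.89 ± 1.14 CPM (n = 6 each, SD, log2 fold change 0.38, edgeR adjusted p = 0.0726), and Rgs7bp and Rgs17 had −0.08 and 0.14 (adjusted p = 0.136 and 0.164). Of 24 genes of clathrin-mediated uptake, which carries arrestin-bound receptors into the cell, Dnm3, Epn2 and Itsn1 had log2 fold changes of −0.09, 0.08 and −0.06 (edgeR adjusted p = 0.150, 0.161 and 0.182). Of 23 kinases, ubiquitin ligases and enzymes that bind arrestins, Dgkz, Nedd4l and Nedd4 had 0.09, 0.08 and 0.07 (edgeR adjusted p = 0.0726, 0.117 and 0.152).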

How the data were processed

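Per the labels' protocols, RNA of freshly dissected cerebella was made into libraries using a strand-marking mRNA kit, and the samples were pooled over the same lanes of a HiSeq sequencer. The authors deposited raw counts per gene symbol, not normalised. They also deposited a DESeq2 comparison with mean normalised counts (a signal over all samples), log2 fold changes with standard errors, a test statistic (score) and p-values, per the file headers. Its sign convention is not given in the file and was read from 400 genes called there and here, of which 400 had the same sign with positive as higher in cKO. STAR, DESeq2 and mm10 are named without versions in the submitters' processing notes, while the annotation, the counter and how it treated strand remain not given in the sources used here. Of 12 count columns all were matched to samples by identifier.

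The tests used edgeR 4.0.16 under R 4.3.3 (filterByExpr, TMM, glmQLFit, glmQLFTest, Benjamini-Hochberg over 15467 genes at 0.05, genotype only). Standard errors and 95% intervals came from the test statistic. Correlations used log2 CPM with a prior count of 2. Positions and exon lengths came from GENCODE M21 (mm10), matched for 98.7% of 18394 symbols, older symbols included. Alternatives used DESeq2 1.42.0 and sva 3.50.0 with 2 surrogate variables. The test was tested on simulated data.

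Replicate numbers only name libraries, and any 2 libraries of a genotype differed beyond sampling noise (smallest chi-square per degree of freedom 2.68), so each counted as 1 sample. The labels give 1 library per mouse as the series describes it. The edgeR p-values set the genotype difference against the spread between these samples, which was estimated with information from all tested genes. The members and lists were chosen with earlier results of these data known. Beside the 5 members, named genes were those called in a list, or else the 3 with the smallest p in it, in marker lists the called genes and first marker, and the 3 genes most like each member. A few genes that this rule would name are left out of the text but stay in the counts. Marker lists also covered Purkinje cells, astrocytes and Bergmann glia, oligodendrocytes, endothelial and mural cells, choroid plexus, meninges and blood, in which edgeR called 0 genes, with 3 at an unadjusted p under 0.05 and 0 called by DESeq2.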

Additional observations from a re-analysis of the deposited data

Results flagged for a closer look

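In 1 of the 10 sets of 6 libraries examined, 1 for each member and genotype, a single library stood apart. The Grk6 level of WT replicate 1 was 54.5 CPM, while the other 5 WT libraries lay between 58.9 and 60.6 CPM, so that its gap to the nearest of them was 0.728 of the whole WT range and above what Dixon's test at the 95% level allows for 6 values. Chance alone gives such a gap in about 1 of 20 sets. Without WT replicate 1 the log2 fold change of Grk6 was −0.03 (SE 0.03) in place of −0.01.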

How the results depend on the processing

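The number of members called stayed at 1, Grk5, in all 22 alternative fits (size factors, filters, DESeq2, thinned counts, covariates, each library left out, and, added after the data were seen, a choroid plexus score and the removal of cKO replicates 1 and 3). These fits reuse the same libraries, and the low Grk5 level was known when the genes were picked, so the repeated call adds no support. The log2 fold change of Grk5 ranged from −0.59 with thinned counts to −0.48 with the forebrain and midbrain score. Grk6 ranged from −0.0349 to 0.0042 with a library left out, turning positive without cKO replicate 6, and was not called in any fit. The 1 pathway gene called higher became 2 with RLE size factors or a mean of at least 1 CPM, 4 with DESeq2 and 0 with no filter, either marker score, surrogate variables or without cKO replicates 1 and 3, and ranged from 0 to 4 with a library left out. The 4 called lower became 7 with DESeq2, 0 with the forebrain and midbrain score, 1 with surrogate variables and 2 without cKO replicates 1 and 3. The 4 cell type markers called higher became 2 with thinned counts, 0 with the forebrain and midbrain score and 1 with surrogate variables or without cKO replicates 1 and 3, with a range of 1 to 3 with a library left out. The 6 called lower became 3 with the forebrain and midbrain score, with surrogate variables and without cKO replicates 1 and 3. Of all tested genes, 409 were called as reported, 79 with the forebrain and midbrain score, 126 with surrogate variables, 212 without cKO replicates 1 and 3, and 272 to 459 with a library left out, the lowest without WT replicate 3. The cause of these changes was not tested. Of the 15 genes named as most like a member, 5 were also among the 3 closest by Spearman correlation. No paired analysis was possible because the labels give no replicate numbers shared between the genotypes. Low depth limits Grk4, with 161 counts in its shallowest library.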

Other observations

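Of the tested genes within 1 Mb of each member, 0 of 11 were called for Grk5, 1 of 28 for Grk4 (Adra2c), 0 of 39 for Grk6, 0 of 30 for Arrb1 and 4 of 71 for Arrb2 (Plscr3, Ybx2, Slc2a4 and Rnf167), against 2.64% of all tested genes. Within 2 Mb the counts were 0 of 15 for Grk5, 2 of 51 for Grk4, 2 of 50 for Grk6, 1 of 57 for Arrb1 and 5 of 108 for Arrb2. Within 5 Mb they were 1 of 30 for Grk5 (Afap1l2), 3 of 122 for Grk4, 3 of 81 for Grk6, 1 of 93 for Arrb1 and 6 of 158 for Arrb2. The median log2 fold change of the neighbours lay between −0.01 and 0.03 in every window. These windows were chosen after the data were seen, and the counts were not tested.

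Arrb1 correlated over the 12 libraries at r = 0.74 with Cx3cr1, a receptor of microglia, after the genotype means were taken out, the highest value among 10 first markers of cell type lists. Arrb2 was at r = 0.66 with Pcp2, a Purkinje cell gene. These values describe 12 libraries and were picked from 50 after they were seen.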
